A study of Mus musculus with 12 samples.

Results

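The genes described here encode 7 components of the dystrophin-glycoprotein complex and its utrophin counterpart (Dmd, Utrn, Dag1, Sgca, Sgcb, Sgcd and Dtna), together with dysferlin (Dysf), a protein of membrane repair. They were taken by name as the 8 rows of a table of 43686 rows whose gene name is one of these symbols, and all 8 passed the filter on low counts that left 17155 rows to test. The RNA came from the ventricular wall of 6 control and 6 mutant mice, given as C57BL/6 and 2 months old in the labels and as of C57BL/6J background in the study's methods, and was sequenced after selection of polyadenylated mRNA. All 12 animals carried floxed Sdhaf4 alleles, the gene of an assembly factor of mitochondrial complex II. The 6 controls (WT, Sdhaf4fl/fl, named wild type in the labels) had no Cre. The 6 mutants (KO, Sdhaf4fl/fl with Ckmm-Cre, named Sdhaf4-/- in the labels) expressed Cre from the muscle creatine kinase promoter. The study describes them as knockouts specific to cardiac and skeletal muscle. Whether the other cells of the heart kept the alleles was not measured here. The ages in weeks that the study gives for such hearts differ between its results and its reporting summary, and the older of those in the summary is close to the labelled age.

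Dystrophin is a long rod under the muscle membrane, the sarcolemma, that binds actin filaments at one end and dystroglycan at the other. Alpha-dystroglycan binds laminin outside the cell, the sarcoglycans and sarcospan brace dystroglycan in the membrane, and dystrobrevin and the syntrophins hold signalling proteins on the inner face. Loss of dystrophin or of some of the sarcoglycans can leave the membrane of contracting cardiomyocytes fragile and lead to dilated cardiomyopathy. Dysferlin helps vesicles to reseal membrane wounds. The comparison asked whether mRNA of this complex differed in hearts that lack a complex II assembly factor.

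In KO hearts the mRNA of Dysf, Dmd, Dag1 and Utrn rose and that of Sgca fell, while Sgcb, Sgcd and Dtna did not pass the test. Dysf rose 1.61-fold and Dmd 1.51-fold, whereas Sgca was at 0.716 of its WT level. With edgeR's quasi-likelihood test, 4 of the 8 genes were higher and 1 was lower at an adjusted p under 0.05. Over all rows tested, 51.1% passed this threshold, 25.6% as higher and 25.5% as lower, so 5 calls among 8 genes are near what the whole table gives. None of the 8 reached the stricter threshold of the study's methods, which asks for an adjusted p below 0.005 and a log2 fold change beyond 1 in size, and which 10.2% of all rows met. In 4 of the 8 genes no KO library overlapped the WT libraries, against 30.1% of all rows. Their median log2 fold change was 0.17, beside 0.0022 over all rows tested.

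The 300 bases around an annotated start are shown for the genes with the largest rises and for the one that fell, as the stretch around one annotated start of each. RefSeq, on GRCm38.p6, gave such a window (250 bases before the start and 50 after it) for 7 of the 8 genes. Each is written 5′ to 3′ on the strand of the gene, and capitals mark every match, on either strand, to the motifs searched: the E-box CANNTG, the GC box GGGCGG, the TATA box TATAAA, the M-CAT element CATTCC, the CCAAT box, the core ACGTG of the hypoxia response element, MEF2 and the CArG box. The TATA box and MEF2 matches at the start of the Dmd window overlap and appear as 1 run of capitals.
Dmd, chrX:82948620-82948919, plus strand: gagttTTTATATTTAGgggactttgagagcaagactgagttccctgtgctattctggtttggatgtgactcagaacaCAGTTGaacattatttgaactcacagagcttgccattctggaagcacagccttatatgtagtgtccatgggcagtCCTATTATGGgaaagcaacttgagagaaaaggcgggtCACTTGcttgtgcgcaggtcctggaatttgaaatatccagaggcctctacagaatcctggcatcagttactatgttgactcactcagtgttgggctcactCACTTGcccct
Dysf, chr6:84008348-84008647, plus strand: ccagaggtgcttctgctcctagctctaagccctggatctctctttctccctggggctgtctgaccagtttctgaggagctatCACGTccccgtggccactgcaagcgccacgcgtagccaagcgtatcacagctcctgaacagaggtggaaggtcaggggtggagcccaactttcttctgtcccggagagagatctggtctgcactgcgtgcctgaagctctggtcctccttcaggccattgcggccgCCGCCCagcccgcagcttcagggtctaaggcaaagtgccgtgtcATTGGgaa
Sgca, chr11:94976278-94976577, minus strand: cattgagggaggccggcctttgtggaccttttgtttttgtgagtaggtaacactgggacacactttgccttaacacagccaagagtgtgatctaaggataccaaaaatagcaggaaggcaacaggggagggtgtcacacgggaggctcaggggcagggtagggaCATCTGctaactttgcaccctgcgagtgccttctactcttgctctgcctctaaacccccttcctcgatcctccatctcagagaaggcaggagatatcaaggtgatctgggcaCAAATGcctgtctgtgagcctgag

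The Dmd window held 3 E-boxes, 1 TATA box match, 1 MEF2 match and 1 CArG box. The TATA box match lay 245 bases before the annotated start and on the strand opposite to the gene. Windows with an E-box made up 72.3% of the 32851 windows of that length, those with a TATA box 13.6%, those with MEF2 3.19% and those with a CArG box 1.63%. The Sgca window held 2 E-boxes and none of the other motifs. The Dysf window held 1 GC box, 1 CCAAT box and 1 hypoxia response core, which occur in 35.7%, 37.4% and 19.6% of all windows, and no E-box. A further start inside the Dmd gene, of 62.7% GC, held 3 GC boxes and no E-box. A further Dysf start, at chr6:84019136-84019435, held 1 E-box and 3 GC boxes. The count of a gene sums the transcripts from all its starts, and which start was used in these hearts was not measured. These matches describe letters in a window and were not tested as binding sites.

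The deleted gene was checked first. Sdhaf4 was at 25.2 ± 5.80 CPM (counts relative to a library size scaled by edgeR's TMM factors, mean ± SD, n = 6 here and below) in WT and 2.40 ± 0.17 in KO, with every KO library below every WT library. WT 6 had 14.3 CPM, well under the other WT libraries at 24.1 to 30.3 CPM, and the cause of its lower level was not tested. The libraries held between 23747014 and 31393393 counts, and the least counted of the 8 genes, Sgcd, had at least 731 counts in each. KO 3 stood furthest from the libraries of its own genotype (chi-square per degree of freedom of its counts against each of them, 29.1 to 52.6). Markers of other cell types moved with genotype too. Of 9 fibroblast markers 8 rose and 1 fell, and their summed level ranged from 1550 to 1811 CPM in WT and from 2650 to 4974 CPM in KO. Of 9 cardiomyocyte markers 2 rose and 4 fell, with sums of 46304 to 50333 CPM in WT and 39649 to 54179 CPM in KO. Endothelial markers (4 of 7 rose, 1 fell) summed to 1391 to 1541 CPM in WT and 1593 to 1886 CPM in KO. Mural cell markers (2 of 7 rose, 2 fell) and macrophage markers (1 of 7 rose, 2 fell) overlapped between the groups in their sums. Skeletal muscle markers summed to at most 11.97 CPM, with 2 of 3 tested lower and Myh1, Myh2, Myh4 and Actn3 under the filter, and Schwann cell markers to at most 15.97 CPM, with 3 of 4 tested lower. The part of this cell makeup in the values below was not tested, and in RNA of whole tissue fewer cells of a type and less RNA per cell cannot be told apart. The labels number the samples within a group and name no batch, so no batch could be examined.

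**Figure D1:**
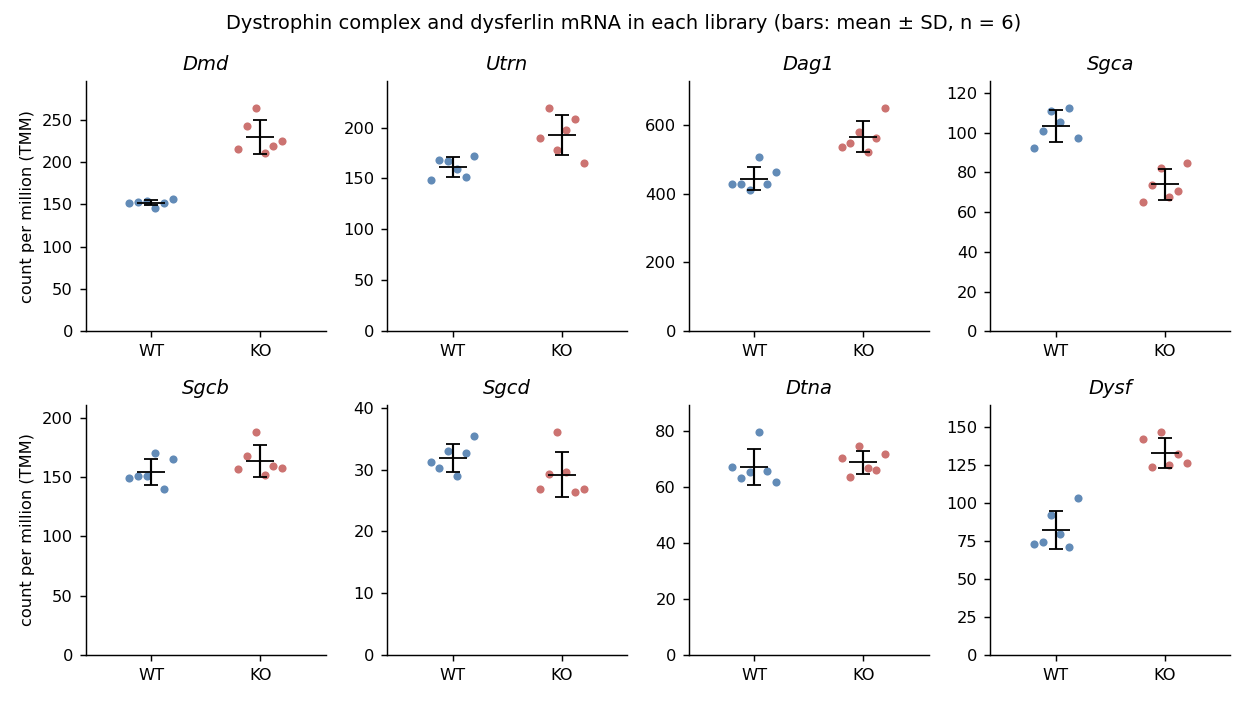
Each panel plots the TMM-scaled CPM of 1 gene (vertical axis) in the 6 WT and 6 KO libraries, with the mean and SD as bars. The KO points of Dmd, Dag1 and Dysf lie above all WT points, those of Sgca lie below them, and the other genes overlap.

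Dmd encodes dystrophin, the actin-binding rod of the complex (X:81355326-83791018 on the C57BL/6NJ assembly, plus strand, identifier MGP_C57BL6NJ_G0036382). Its level ran from 146 CPM through a median of 152 to 157 in WT, and from 211 through 221 to 264 in KO. The WT libraries lay within a narrow band, and the lowest KO library was well above it. The means were 152 ± 3.43 CPM in WT and 229 ± 20.4 in KO, a log2 fold change of 0.59 (SE 0.06, 95% confidence interval 0.48 to 0.71, edgeR adjusted p = 1.58e-07). KO 3 was the highest library.

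Utrn encodes utrophin, the close relative of dystrophin that occupies the whole sarcolemma in fetal muscle and is widely expressed in other cells of the adult (10:10020269-10533130, minus strand, MGP_C57BL6NJ_G0017413). Its WT libraries had 149 to 172 CPM (median 163) and its KO libraries 165 to 219 CPM (median 193). The groups overlapped, since KO 6 and WT libraries lay at the same level. The means of 161 ± 9.59 and 193 ± 19.8 CPM gave a log2 fold change of 0.26 (SE 0.07, adjusted p = 0.00336). The size of this rise depended on the scaling: it was 0.14 (adjusted p = 0.0454) once the trend of counts on gene length was removed, and 0.44 (adjusted p = 0.00159) when libraries were scaled to cardiomyocyte markers. Between the long rods, the count of Utrn relative to that of Dmd in the same library fell from 1.06 in WT to 0.839 in KO (geometric means). Every KO ratio, from 0.672 to 0.952, was under the lowest WT ratio of 0.978, and the difference of -0.34 on the log2 scale had p = 0.00216 in a two-sided exact permutation test, the smallest that 6 against 6 libraries allow (adjusted p = 0.0034 over the 11 ratios tested). Both genes rose in KO, so the lower ratio reflects the larger rise of Dmd and no fall of Utrn.

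Dag1 encodes dystroglycan, the precursor of the laminin receptor and of its transmembrane partner that dystrophin holds (9:113120590-113188270, minus strand, MGP_C57BL6NJ_G0035781). It had 412 to 506 CPM in WT (median 428) and 522 to 650 CPM in KO (median 555). All KO libraries were higher than all WT libraries, although WT 4 came close to them. The log2 fold change was 0.35 (SE 0.06, 95% confidence interval 0.22 to 0.49, adjusted p = 0.000207), from 444 ± 34.6 to 566 ± 45.4 CPM. Relative to Dmd, the Dag1 count went from 2.91 to 2.47, a log2 difference of -0.24 (exact p = 0.0108, adjusted 0.0149) with overlap of the groups. Here too both genes rose, and Dmd rose by more. No other row of the table overlaps the gene.

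The sarcoglycans form a subcomplex of single-pass proteins beside dystroglycan. Sgca, the alpha subunit, whose gene is largely restricted to striated muscle (11:100211300-100224840, minus strand, MGP_C57BL6NJ_G0019364), had 92.1 to 113 CPM in WT (median 103) and 65.2 to 84.6 CPM in KO (median 72.2). Every KO library was below every WT library. The log2 fold change was -0.48 (SE 0.07, 95% confidence interval -0.63 to -0.33, adjusted p = 2.08e-05), and -0.32 (adjusted p = 0.00188) when libraries were scaled to cardiomyocyte markers.

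Sgcb, the beta subunit (5:76681878-76696974, minus strand, MGP_C57BL6NJ_G0030059), had 140 to 170 CPM in WT (median 151) and 151 to 188 CPM in KO (median 158). The ranges overlapped over most of their width. The log2 fold change of 0.08 (95% confidence interval -0.04 to 0.21) was not called at an adjusted p of 0.269. It was 0.25 and passed the threshold (adjusted p = 0.00753) when libraries were scaled to cardiomyocyte markers, a scaling that moved the median of all rows up by 0.17. Sgcd, the delta subunit (11:47218481-48373137, minus strand, MGP_C57BL6NJ_G0018597), had 29.1 to 35.5 CPM in WT (median 32.0) and 26.5 to 36.2 CPM in KO (median 28.1). KO 3 was the highest of all 12 libraries and the other KO libraries lay between 26.5 and 29.6 CPM. The log2 fold change was -0.13 (95% confidence interval -0.29 to 0.03, adjusted p = 0.177), and without KO 3 it was -0.20 with an adjusted p of 0.012, which would be called lower. With scaling to cardiomyocyte markers it was 0.03 (adjusted p = 0.778).

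Dtna encodes alpha-dystrobrevin, a cytoplasmic relative of dystrophin that anchors syntrophins (18:22050554-22301941, plus strand, MGP_C57BL6NJ_G0024599). It had 61.8 to 79.9 CPM in WT (median 65.8) and 63.7 to 74.7 CPM in KO (median 68.8). The KO range lay inside that of WT, whose top value was WT 4. The log2 fold change was 0.04 (95% confidence interval -0.10 to 0.17, adjusted p = 0.66).

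Dysf encodes dysferlin, a calcium sensor with C2 domains that brings vesicles to membrane wounds (6:87404597-87634524, plus strand, MGP_C57BL6NJ_G0031383). It had 70.9 to 103 CPM in WT (median 77.2) and 123 to 147 CPM in KO (median 129). The highest WT library, WT 6, remained below all KO libraries. The log2 fold change was 0.69 (SE 0.09, 95% confidence interval 0.51 to 0.87, adjusted p = 5.65e-06), the largest in size among the 8 genes. Rows that overlap it held at most 0.568% of its counts. Its ratio to Dmd was 0.536 in WT and 0.579 in KO, with overlapping groups and a log2 difference of 0.11 (exact p = 0.258, adjusted 0.283), so that a different rise of Dysf and Dmd was not detected.

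**Figure D2:**
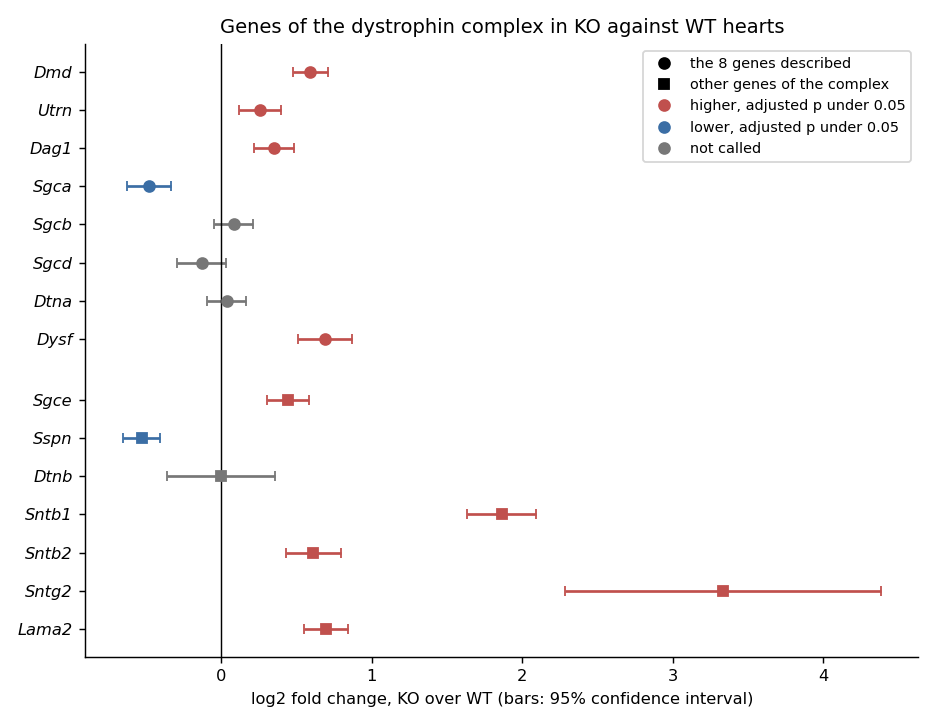
Points give the log2 fold change of KO over WT (horizontal axis) for the 8 genes (circles) and 7 tested partners of the complex (squares), with the 95% confidence interval as bars. Sgca and Sspn lie left of 0, Dmd, Dag1, Dysf and Sntb1 lie right of it, and the intervals of Sgcb, Sgcd, Dtna and Dtnb cross 0.

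Ratios of counts within a library do not depend on how libraries are scaled. A trend of counts on gene length can still move them, and no ratio was computed with that trend removed. Relative to Dmd, the sarcoglycan genes and Dtna fell in KO. The Sgca ratio went from 0.677 (0.607 to 0.743) in WT to 0.322 (0.302 to 0.377) in KO, a log2 difference of -1.07. The Sgcb ratio was 1.01 in WT and 0.713 in KO, with KO libraries between 0.689 and 0.728, a narrow range. The Sgcd ratio was 0.210 in WT and 0.127 in KO, and the Dtna ratio 0.441 and 0.301. In all 4 ratios no KO library overlapped WT, each with exact p = 0.00216 and adjusted p = 0.0034. Since these ratios share Dmd as the denominator, they are not independent of each other. Sgcb, Sgcd and Dtna were not called by themselves, whereas Dmd rose without overlap of the groups. Their lower ratios therefore mostly restate the rise of Dmd and are no separate evidence of a fall. Over all rows tested, the upper quartile of the log2 fold change was 0.30, under the 0.59 of Dmd. Most rows thus fell relative to Dmd.

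**Figure D3:**
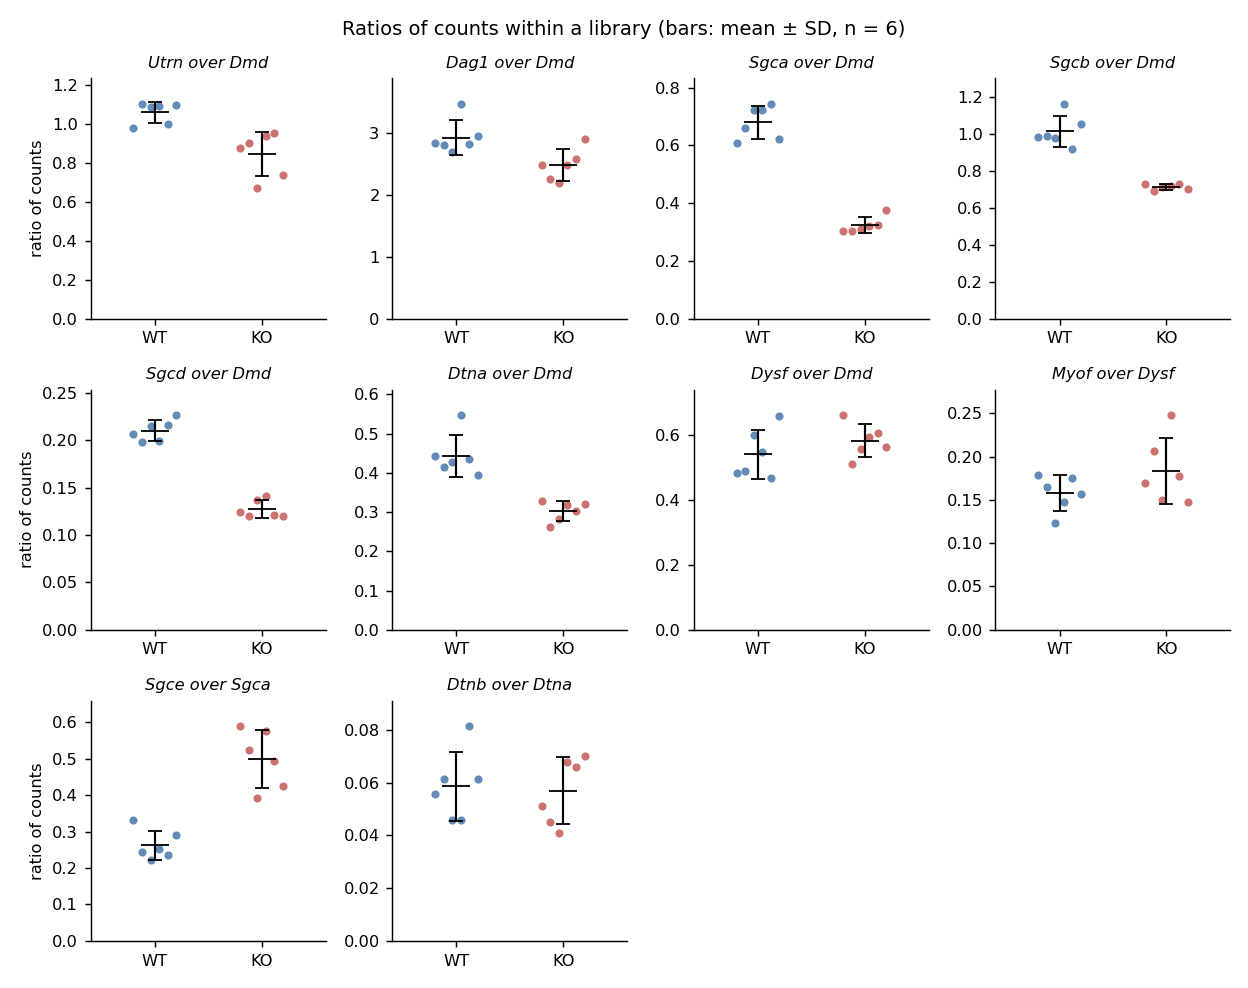
Each panel plots the ratio of the counts of 2 genes (vertical axis) in the 6 WT and 6 KO libraries, with the mean and SD. Dmd ratios of Utrn, Sgca, Sgcb, Sgcd and Dtna separate the groups downwards, and Sgce over Sgca separates them upwards, while the Dag1, Dysf, Myof and Dtnb panels overlap.

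Levels of different genes were compared per length. For 69.9% of the 13114 rows with at least 50 counts in WT 1, the deposited FPKM implies a length shorter than that in the length column of the table (for Dmd 2882 bases, against 14880), so levels were also set per kb of that column, a scale added after the data had been seen. In WT, Dag1 was the most abundant on both scales (154 FPKM, 78.4 CPM per kb), followed by Sgca (92.3 FPKM, 59.9 CPM per kb) and Sgcb (72.5 FPKM, 40.7 CPM per kb), and the ranges of these neighbours did not overlap. Sgcd was the lowest on both (13.6 FPKM, 7.18 CPM per kb). Dmd came next by FPKM at 52.7, above Utrn at 18.7, but among the lower genes per kb, where Utrn, Dysf, Dtna and Dmd followed one another at 13.0, 12.1, 10.6 and 10.2 CPM per kb with overlapping ranges. In KO, Dag1 was still first (197 FPKM, 99.95 CPM per kb) and Sgcd last (12.4 FPKM, 6.56 CPM per kb). Sgca and Sgcb, apart in WT, overlapped in KO on both scales (66.1 and 76.8 FPKM, 42.9 and 43.2 CPM per kb). Dysf, at 15.7 FPKM in WT, reached 25.3 FPKM in KO, above the whole range of Dtna there.

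The partners of the complex were read from a list of 12 other genes, of which 9 were tested. Of these, 6 rose, 2 fell and Dtnb (log2 fold change 0.0014, adjusted p = 0.995) was not called, with a median log2 fold change of 0.44. Over all rows tested, 25.6% rose and 25.5% fell. The stricter threshold was reached by 3 of the partners tested and by 10.2% of all rows. Among the membrane partners, Sspn, the tetraspanin-like sarcospan, fell from 267 ± 11.6 to 185 ± 16.9 CPM (log2 fold change -0.53, adjusted p = 1.17e-06). Sgce, the epsilon-sarcoglycan, which stands in for the alpha subunit in many tissues outside striated muscle, rose from 26.9 ± 2.22 to 36.5 ± 2.66 CPM (0.44, adjusted p = 2.93e-05).

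On the inner face, the syntrophin genes named here rose by unequal amounts. Sntb1, the beta1-syntrophin, had 5.05 to 8.14 CPM in WT and 19.7 to 25.7 CPM in KO. Every KO library had more than every WT library, and the log2 fold change was 1.86 (SE 0.11, adjusted p = 8.18e-10). Sntb2 rose by 0.61 (adjusted p = 1.8e-05). Sntg2, a gamma-syntrophin, had 0 to 6 counts in WT libraries and 27 to 51 in KO libraries (log2 fold change 3.33, SE 0.50, adjusted p = 2.87e-05), a value that rests on few counts, since 0 counts allow up to 3 in a library, or up to 0.118 CPM in WT 3. Nos1, neuronal nitric oxide synthase, which syntrophin anchors, did not pass the filter on low counts. It had 0 or 1 count in each WT library and 7 to 36 in each KO library. Sntg1 (at most 1 count in WT, 1 to 10 in KO) and Sgcz (1 count in all) did not pass the filter either. In the fit without that filter Nos1 (adjusted p = 1.73e-06) and Sntg1 (adjusted p = 0.00479) were called higher, on these few counts, and Sgcz was not called (adjusted p = 0.353), which made 8 partners higher in place of 6. Outside the cell, Lama2, the laminin chain that dystroglycan binds in muscle, rose from 168 ± 12.2 to 273 ± 28.7 CPM (0.70, adjusted p = 3.73e-07). Drp2, a short relative of dystrophin, was added after its values had been seen, and had 0.243 to 0.614 CPM in WT and 1.36 to 3.85 CPM in KO (2.67, SE 0.30, adjusted p = 1.22e-06).

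Related genes of the complex were also compared within libraries. The count of Sgce over Sgca rose from 0.260 (0.223 to 0.331) in WT to 0.495 (0.392 to 0.589) in KO, a log2 difference of 0.93, without overlap and with exact p = 0.00216 (adjusted 0.0034). Since Sgce rose and Sgca fell by themselves without overlap of the groups, this ratio restates both results and is no separate evidence. Dtnb over Dtna was 0.0575 in WT and 0.0556 in KO (exact p = 0.797), with overlapping groups.

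Dystroglycan binds laminin only after a chain of enzymes has built its O-mannosyl glycan. Of 16 tested genes of that chain 1 rose and 4 fell (25.6% and 25.5% of all rows), with a median log2 fold change of -0.10. Scaling to cardiomyocyte markers turned these counts to 3 higher and 2 lower. Pomt1, one of the pair that adds the first mannose, fell by 0.86 on the log2 scale (adjusted p = 2.31e-06) and overlaps other rows. Pomgnt2, which extends the core, fell by 0.57 (adjusted p = 1.16e-05).

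Membrane repair genes beside dysferlin numbered 26 tested, of which 14 rose and 6 fell (3 fell with scaling to cardiomyocyte markers). The shares over all rows were 25.6% higher and 25.5% lower. The median log2 fold change of the list was 0.20. Anxa1, an annexin that gathers at wounds in a calcium-dependent way, went from 30.1 to 40.6 CPM in WT to 66.2 to 77.7 CPM in KO (0.99, adjusted p = 3.08e-09). Smpd1, the acid sphingomyelinase, rose by 0.64 (adjusted p = 5.97e-07). Myof, myoferlin, the closest relative of dysferlin, had 11.3 to 16.2 CPM in WT and 18.7 to 30.9 in KO (0.91, adjusted p = 3.44e-06). Its ratio to Dysf was 0.157 in WT and 0.180 in KO with overlap (log2 difference 0.20, exact p = 0.203, adjusted 0.249). Anxa11 fell by 0.58 (adjusted p = 3.94e-06).

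The parallel links from matrix to cytoskeleton were read in the same way. Of 22 genes of laminins, collagen VI, integrins and their adaptors, 13 rose and 3 fell (median log2 fold change 0.25). Of all rows, 25.6% rose and 25.5% fell. Vcl, vinculin, rose by 0.85 (adjusted p = 4.7e-08), Parvb, beta-parvin, by 0.71 (adjusted p = 7.05e-08), Tln1, talin 1, by 0.70 (adjusted p = 4.05e-08) and Itga5 by 0.56 (adjusted p = 1.25e-06). Of 6 tested genes that link intermediate filaments to the complex or the costamere, 3 rose and 1 fell (median 0.32). The same shares of all rows, 25.6% and 25.5%, stand beside this small list. Des, desmin, rose by 0.47 (adjusted p = 0.000265) and Sync, syncoilin, which binds alpha-dystrobrevin and desmin, by 0.63 (adjusted p = 1.31e-06). Plec, plectin, had 0.17 (adjusted p = 0.0121), and 0.04 (adjusted p = 0.506) once the length trend was removed. Cmya5, myospryn, fell by 0.76 (adjusted p = 1.65e-07).

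**Figure D4:**
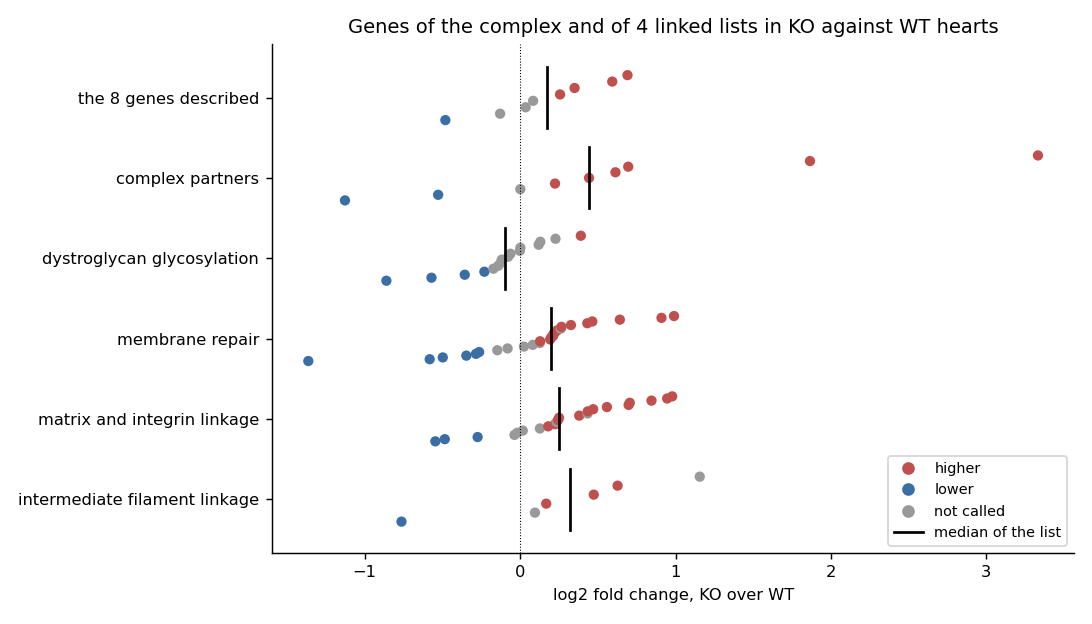
Each point is the log2 fold change of KO over WT (horizontal axis) of 1 tested gene, set in rows by list, with red for higher, blue for lower, grey for not called and a black bar at the median of each list. The medians run from -0.10 for the glycosylation genes to 0.44 for the partners of the complex.

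Within the genotypes, the row whose level followed each gene most closely over the 12 libraries was looked up among 11167 rows with a mean of at least 5 CPM. After the genotype means were subtracted, Pearson's r was 0.94 for Dmd with Mocs2 and for Utrn with Itsn2, 0.93 for Sgca with Rpa1, 0.94 for Sgcb with Dlat, 0.89 for Dtna with Abcf2 and 0.88 for Dysf with Sept8. For Dag1 the closest row carries no gene name (r = 0.96) and for Sgcd it is an unannotated locus (r = 0.98). These are the highest of many values from 12 points that share library depth, and they are given as a description only.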

How the data were processed

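The authors mapped reads of poly-A selected libraries, per the labels' processing notes with HISAT2 2.0.5 against mm10, and counted them per gene with HTSeq; identifiers and coordinates are those of the C57BL/6NJ assembly. The deposited table holds raw counts and FPKM per library (the FPKM by the authors, whose length differs from the table's length column in most rows) and the authors' group means, fold changes and p-values, which were not used. The members and lists were chosen with earlier results of these data known. Counts were tested in R 4.3.3 with edgeR 4.0.16 (filterByExpr, TMM, robust quasi-likelihood, Benjamini-Hochberg over 17155 rows), and the procedure was tested on simulated data. Ratios of counts (0.5 added) were compared by exact permutation. Alternatives used DESeq2 1.42.0, limma 3.58.1, other scalings and filters, a length trend and each library left out. Named genes were the 8 members, the complex partners, the genes of the ratios, and in 4 other lists the 4 with the smallest p and a mean of at least 5 CPM. A few of these, and what rests on them, are not reported here. Samples of a group are labelled as separate libraries, and p-values weigh the difference between KO and WT against the spread between libraries. Intervals cover the spread between libraries; limits for 0 counts cover counting error only.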

Additional observations from a re-analysis of the deposited data

Results flagged for a closer look

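Of 98 groups of 6 values examined, 11 held a library far from the other 5 by Dixon's criterion, where chance gives about 1 in 20, or 4.9. Among the genes described, Sgcd had 36.2 CPM in KO 3 against 26.5 to 29.6 in the other KO libraries, and Dtna had 79.9 CPM in WT 4 against 61.8 to 67.2. Of the partners, Dtnb had 5.34 CPM in WT 5 (others 2.99 to 3.87), and Sgcz had 0.0398 CPM in WT 4, a single count, where the others had 0. Myof had 16.2 CPM in WT 6 (others 11.3 to 13.1), Tln1 183 CPM in WT 6 (others 162 to 169), and Cmya5 658 CPM in WT 2 (others 748 to 773). Sdhaf4 had 2.73 CPM in KO 1 (others 2.25 to 2.41). In the ratios to Dmd, WT 4 had 3.46 for Dag1 (others 2.68 to 2.94) and 0.547 for Dtna (others 0.394 to 0.443), and KO 6 had 0.377 for Sgca (others 0.302 to 0.323).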

How the results depend on the processing

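The calls of Dmd, Utrn, Dag1, Sgca and Dysf and their directions were the same under all 23 alternatives run, with log2 fold changes of 0.47 to 0.76, 0.14 to 0.44, 0.29 to 0.52, -0.53 to -0.32 and 0.62 to 0.86. Scaling to 9 cardiomyocyte markers raised the median of all rows by 0.17 and gave 5784 rows higher and 2313 lower, against 4391 and 4376. Under it Sgcb was 0.25 (adjusted p = 0.00753, called higher), Sgcd 0.033, the glycosylation genes had 3 higher and 2 lower, and the membrane repair genes 3 lower. With the length trend removed, 2 glycosylation genes were higher, Dtna was -0.033 and Dtnb -0.034. Dtnb was also -0.0083 with upper quartile scaling and -0.0062 with limma-voom, never called. Leaving out 1 library at a time, the number of the 8 genes lower was 1 to 2, Sgcd ran from -0.20 to -0.10 (called without KO 3), Dtnb from -0.086 to 0.11 and the log2 ratio of Dtnb over Dtna from -0.11 to 0.053. The cause of these shifts was not tested. The replicate numbers did not pair the libraries (same-number correlations of deviations from -0.162 to 0.0243, and no library correlated best with its own number). The fit with the replicate number as a block gave 4123 rows higher and 4110 lower and changed no call of a named gene (Dtnb -0.0063). Values under about 0.12 CPM cannot be told from 0 at this depth.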
